A study of Arabidopsis with 6 samples.

Results

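Galactinol synthases and raffinose synthase make the raffinose family of sugars, and 5 of their genes are described here. They are the galactinol synthase genes GolS1 (AT2G47180), GolS2 (AT1G56600), GolS3 (AT1G09350) and GolS4 (AT1G60470) and the raffinose synthase gene RS5 (AT5G40390), taken by locus identifier from 19763 genes listed in each library. The set was selected on family name and on the light and genotype differences in FPKM of these same libraries, so the values are a description and none of them is tested. RNA sequencing was done on Arabidopsis seedlings of the PCD8 RNAi-21 mutant, a line named for RNA interference against PCD8, and of the wild type (WT). Both genotypes were grown in the dark for 4 days on agar with MS medium and were sampled in darkness (0 h) or once lit for 0.5 h or 2 h, so the 6 groups are RNAi-21 at 0, 0.5 and 2 h and WT at 0, 0.5 and 2 h. Each group held 1 library, and no value of a gene below has a replicate error. The RNAi material is a single numbered line, and the promoter of its construct is not given in the sources used here.

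Galactinol synthase joins UDP-galactose to myo-inositol and is the first committed step of the pathway. Raffinose synthase then moves the galactosyl group from galactinol to sucrose. Galactinol and raffinose gather in maturing seeds and in vegetative tissue under drought, heat or cold, where they are regarded as osmoprotectants and scavengers of hydroxyl radicals. In Arabidopsis, GolS1 and GolS2 are known as drought, salt and heat responsive genes and GolS3 as the cold responsive one, while RS5 is the raffinose synthase of stressed leaves.

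The values were read as FPKM, a level per transcript length and per library total, which allows levels of different genes to be set side by side. Differences are on the log2(FPKM + 1) scale, where low levels change less than their ratio, and a difference of 1 or more is called 2-fold. A gene was tested where 1 or more libraries reached an FPKM of 1, which kept 18441 genes and 4 of the 5 described, since GolS4 stayed below 1 in every library. Library sums of FPKM ran between 757504 and 891009, and the read depth is unknown. The labels give the tissue as leaf. Summed FPKM of 5 photosynthetic marker genes were 5997, 3760 and 6568 in RNAi-21 at 0, 0.5 and 2 h and 5263, 6204 and 5698 in WT. CAB1 and RBCS1A made most of each sum. Of the 5, 2 (LHCB2.1 and RCA) were at least 2-fold higher at 2 h than at 0 h in each genotype, and none was 2-fold lower. The set therefore does not mark tissue alone across light times. Root markers were also detected under that label, the endodermis gene CASP1 at an FPKM of 371 to 491 and the root hair genes PRP3, EXPA7, SHV2 and RSL4 between 0.734 and 21.9. In bulk samples of this kind, fewer cells of a type and less RNA per cell cannot be told apart. Summed FPKM of 8 seed storage genes were 8.74, 24.1 and 42.3 in RNAi-21 at 0, 0.5 and 2 h and 1.82, 208 and 3.49 in WT at the same times. The level of PCD8 is not analysed here, because no locus of the gene table carries that name.

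GolS1 was the most abundant of the galactinol synthase transcripts in all 6 libraries, and it was nearly the same in both genotypes. Its FPKM was 26.5, 32.9 and 97.7 in RNAi-21 at 0, 0.5 and 2 h, against 28.0, 35.9 and 100.6 in WT. Both 2 h libraries were high and the other 4 lay close together. The difference of RNAi-21 from WT was -0.08, -0.12 and -0.04 at 0, 0.5 and 2 h. Light for 2 h was accompanied by a difference of 1.84 in RNAi-21 and 1.81 in WT, of which little was present at 0.5 h, with differences from 0 h of 0.30 in RNAi-21 and 0.35 in WT.

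GolS2, the second of the galactinol synthases in abundance, had the largest genotype difference of the 5 genes, at 0.5 h of light. Its FPKM was 6.42, 18.7 and 37.9 in RNAi-21 at 0, 0.5 and 2 h, against 4.07, 4.31 and 41.4 in WT. In WT the 0 h and 0.5 h libraries were alike and the 2 h library was high, whereas in RNAi-21 the 0.5 h library lay between the other two. The difference of RNAi-21 from WT was 0.55 at 0 h, 1.89 at 0.5 h and -0.12 at 2 h. Of the increase in FPKM between 0 h and 2 h, 39.0% was present at 0.5 h in RNAi-21 and 0.635% in WT. In the 0.5 h pair all 5 photosynthetic markers were lower in RNAi-21, by a median difference of -0.53, and the 8 seed storage genes by one of -2.23, and their part in the GolS2 difference was not tested. By 2 h both genotypes had similar levels, with differences from 0 h of 2.39 in RNAi-21 and 3.06 in WT.

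**Figure D1:**
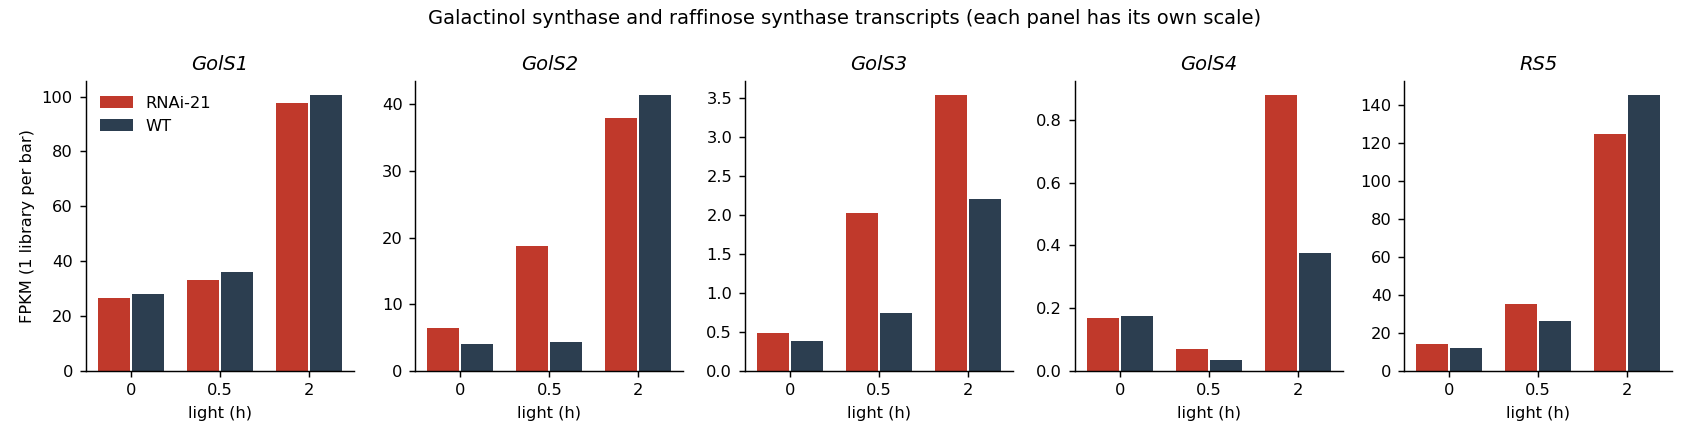
FPKM of the 5 genes (vertical axis, each panel with its own scale from 0) at 0, 0.5 and 2 h of light in RNAi-21 (red) and WT (dark blue), with 1 library per bar and no error. GolS2 at 0.5 h stands at 18.7 in RNAi-21 and 4.31 in WT, while at 2 h its bars are 37.9 and 41.4.

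GolS3 was a weak transcript, and like GolS2 it was higher in RNAi-21 than in WT at 0.5 h. It had an FPKM of 0.480, 2.03 and 3.54 in RNAi-21 at 0, 0.5 and 2 h, against 0.383, 0.747 and 2.21 in WT. RNAi-21 was the higher genotype at each time, by 0.10, 0.79 and 0.50. At 0.5 h, 50.6% of its 2 h increase in FPKM was present in RNAi-21 and 20.0% in WT. Because the values are low, the pseudocount of 1 shrinks these differences, and with a pseudocount of 0.1 the difference at 0.5 h was 1.33.

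GolS4 was barely detected, at 0.169, 0.0684 and 0.879 in RNAi-21 and 0.175, 0.0337 and 0.376 in WT at 0, 0.5 and 2 h. Its highest value in each genotype was at 2 h and its lowest at 0.5 h. A difference between genotypes at this level is not read as one, since the depth behind it is unknown.

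RS5 was the most abundant of the 5 transcripts at 2 h in both genotypes. Its FPKM was 14.0, 35.1 and 125 in RNAi-21 at 0, 0.5 and 2 h, against 12.1, 26.5 and 145 in WT. Levels were ordered by light time in each genotype, and RNAi-21 was higher at 0 h and 0.5 h and lower at 2 h. The difference of RNAi-21 from WT was 0.19, 0.39 and -0.22 at the 3 times. RS5 was the only one of the 5 at least 2-fold higher at 0.5 h in both genotypes, by 1.27 in RNAi-21 and 1.06 in WT.

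**Figure D2:**
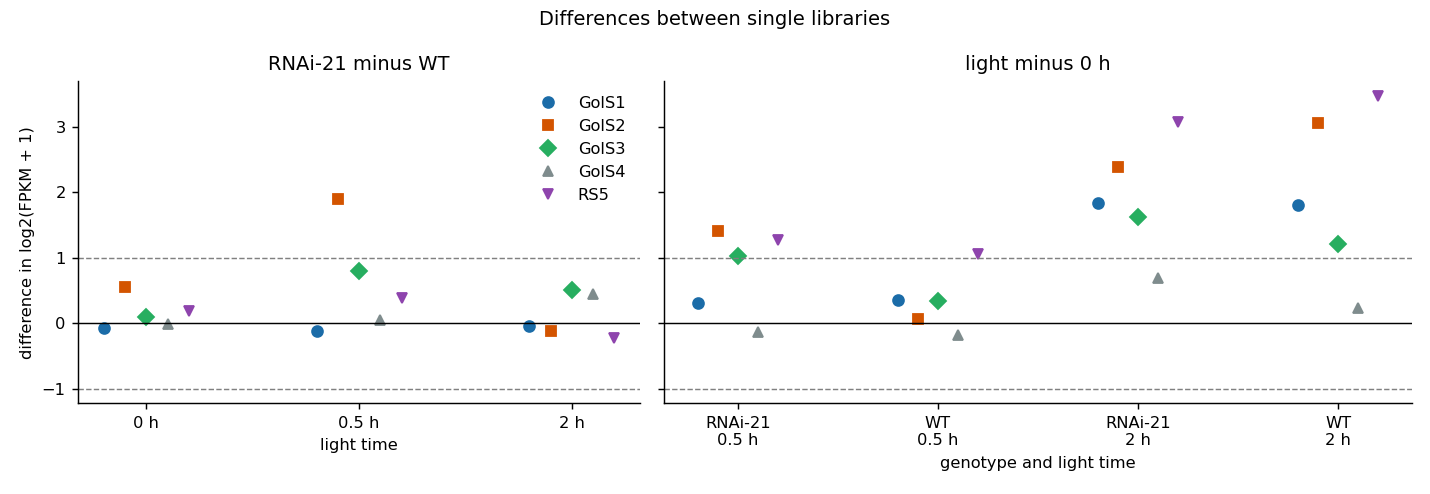
Differences in log2(FPKM + 1) between single libraries for the 5 genes: RNAi-21 minus WT at each light time (left) and 0.5 h or 2 h minus 0 h in each genotype (right), with dashed lines at 1 and -1. GolS2 at 0.5 h, at 1.89, is the only genotype difference past the 2-fold line, and RS5 and GolS2 have the highest light differences at 2 h.

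Across the 5 genes, 1 was at least 2-fold higher in RNAi-21 at 0.5 h and none at 0 h or 2 h, and none was 2-fold lower. Over all 18441 genes tested, 0.841% were at least 2-fold higher at 0.5 h, 0.168% at 0 h and 0.575% at 2 h. At least 2-fold lower were 0.428% at 0.5 h, 0.396% at 0 h and 0.222% at 2 h. The median difference of the 5 genes was 0.10 at 0 h, 0.39 at 0.5 h and -0.04 at 2 h, where that of all genes tested was -0.01, -0.03 and -0.02. Since the 5 genes were chosen with these values in view, nothing is read from their share.

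Light was accompanied by higher levels of every one of the 5 transcripts at 2 h, in both genotypes. GolS4 stayed under an FPKM of 1 throughout, so its higher level is not read as a rise. At least 2-fold higher than at 0 h were 4 of the 5 in RNAi-21 and 4 of the 5 in WT, GolS4 being the exception in each. The background was 8.85% of genes tested in RNAi-21 and 7.8% in WT. At 0.5 h, 3 of the 5 were at least 2-fold higher in RNAi-21 (GolS2, GolS3 and RS5) and 1 in WT (RS5), with backgrounds of 1.78% and 0.819%. From 0.5 h to 2 h, 2 were at least 2-fold higher in RNAi-21 (GolS1 and RS5) and 3 in WT (GolS1, GolS2 and RS5), with backgrounds of 6.49% and 6.68%. GolS2 just missed a difference of 1 on the log2(FPKM + 1) scale in RNAi-21 between these times, at 0.98. Its plain ratio of FPKM was 2.03. Time in light and time alone cannot be told apart, since no seedlings kept in darkness were sampled at 0.5 h or 2 h.

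The light response itself, taken as RNAi-21 minus WT, differed at least 2-fold for GolS2 alone of the 5. For 0.5 h against 0 h the difference between the responses was 1.34 for GolS2, 0.70 for GolS3, 0.20 for RS5 and -0.05 for GolS1, and 0.927% of genes tested were at 1 or above. For 2 h against 0.5 h it was -2.02 for GolS2 and -0.61 for RS5, and 0.721% of genes tested were at -1 or below. For 2 h against 0 h none of the 5 passed 1 in either direction, with GolS2 at -0.67 and GolS4 at 0.46 as the outer values, and 1.65% of genes tested did in one direction or the other. These comparisons share libraries with one another and with the genotype differences at each time, and the WT library at 0.5 h enters the first 2. That WT library is also the one with the high seed storage transcripts given above.

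The make-up of the galactinol synthase pool differed between the libraries. GolS1 made 78.9%, 61.3% and 69.8% of the summed FPKM of GolS1 to GolS4 in RNAi-21 at 0, 0.5 and 2 h, against 85.8%, 87.6% and 69.6% in WT. GolS2 made 19.1%, 34.8% and 27.1% in RNAi-21 and 12.5%, 10.5% and 28.6% in WT. The RNAi-21 library at 0.5 h thus had the lowest share of GolS1 and the highest of GolS2, and the 2 genotypes had near equal shares at 2 h. The summed FPKM was 33.6, 53.7 and 140 in RNAi-21 and 32.6, 41.0 and 145 in WT, a ratio of RNAi-21 to WT of 1.03, 1.31 and 0.968. At 2 h the sum was 4.17 times its value at 0 h in RNAi-21 and 4.44 times in WT. RS5 stood at 0.416, 0.653 and 0.891 of the summed galactinol synthase FPKM in RNAi-21 at 0, 0.5 and 2 h, and at 0.372, 0.645 and 1.01 in WT. That ratio was higher at each later time in both genotypes, for a sum of which GolS1 makes most. Against GolS2 alone this did not hold, since the 0.5 h level was 2.91 times the 0 h level for GolS2 and 2.51 times for RS5 in RNAi-21, and the 2 h level was 9.62 times the 0.5 h level for GolS2 and 5.49 times for RS5 in WT.

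**Figure D3:**
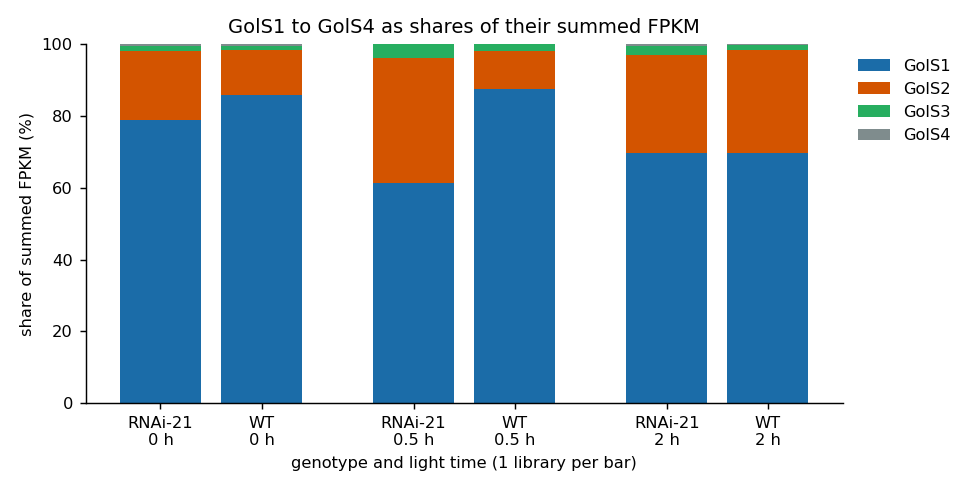
Shares of GolS1, GolS2, GolS3 and GolS4 in their summed FPKM (vertical axis, percent) in each of the 6 libraries, RNAi-21 left of WT at each light time. The GolS2 share at 0.5 h is 34.8% in RNAi-21 and 10.5% in WT, and at 2 h it is 27.1% and 28.6%.

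The levels kept the order GolS1, GolS2, GolS3, GolS4 in every library. RS5 lay between GolS1 and GolS2 in both 0 h libraries and in WT at 0.5 h, and above GolS1 in RNAi-21 at 0.5 h and in both 2 h libraries. With 1 library per group there is no spread against which neighbours in this order could be compared. By ratio, the closest pair was RS5 at 35.1 and GolS1 at 32.9 in RNAi-21 at 0.5 h.

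The other enzymes around galactinol and raffinose were taken from lists of 38 genes, of which 32 are listed and 29 reached an FPKM of 1. They were tested with limma in 1 fit over all 18441 genes, which adds up a genotype term and a light time term, with Benjamini-Hochberg adjustment. With 2 residual degrees of freedom, the error of this fit comes from unequal genotype differences at the 3 times. The genotype term averages over the 3 times, so a difference at 1 time alone is diluted in it and adds to its error. The lists were chosen with earlier results of these data known, so the shares given for them are a description. In the genotype term, limma called none of the 29 enzymes at an adjusted p under 0.05, and 5 had an unadjusted p under 0.05, with 0.0976% of all genes called higher and 0.0705% lower. After 0.5 h of light 1 enzyme gene rose and none fell, where 1.24% of all genes rose and 1.47% fell. At an unadjusted limma p under 0.05 there were 7. No share of all genes is given for the unadjusted p, so nothing is read from the 5 and the 7. After 2 h, 8 rose and 5 fell, where 17.1% and 15.8% of all genes did. The median effect of the 29 at 2 h was 0.01, against -0.03 for all genes.

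Substrate supply included the transcripts with the largest effects. SPS2F (AT5G11110) encodes a sucrose phosphate synthase, of the route to the sucrose to which raffinose synthase adds galactose. It was the gene that rose at 0.5 h, by 2.61 ± 0.36 (SE, adjusted p = 0.0156, limma). At 2 h it rose by 4.07 ± 0.36 (adjusted p = 0.000234, limma). Its FPKM was 4.67, 50.9 and 75.0 in RNAi-21 at 0, 0.5 and 2 h, against 4.07, 19.8 and 106 in WT. At 0.5 h its difference of RNAi-21 from WT was 1.32, the only one of the 29 enzymes at 1 or above, and at 2 h it was -0.50. The sucrose synthase genes SUS3 and SUS1, whose enzymes cleave sucrose, rose by 1.06 and 0.95 at 2 h. Of the 8 tested genes of this list 3 rose and none fell at 2 h, where 17.1% of all genes rose and 15.8% fell. The sucrose phosphate synthase gene ATSPS4F did not pass, at an FPKM of 1.75 to 1.93 in RNAi-21 and 1.26 to 2.29 in WT. Nor did SPS1F, which was more abundant than SPS2F in darkness. It was at 21.1 to 26.2 in RNAi-21 and 20.8 to 25.2 in WT, with an effect of 0.01 at 2 h.

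Of the 9 tested genes of inositol synthesis and oxidation, 2 rose and 2 fell at 2 h, shares near those of all genes (17.1% rose and 15.8% fell). MIPS2 (AT2G22240), a myo-inositol phosphate synthase of the route to the galactosyl acceptor, rose by 3.03 ± 0.16 (SE; adjusted p = 3.9e-05, limma). Its FPKM was 4.48, 10.2 and 46.0 in RNAi-21 at 0, 0.5 and 2 h, against 5.88, 8.17 and 52.2 in WT. MIPS1, its more abundant paralogue in these seedlings, rose by 1.10. The inositol oxygenase genes MIOX2 and MIOX4, which act in the breakdown of inositol, fell by 2.69 and 1.39. MIOX2 was at 55.3, 30.4 and 5.81 in RNAi-21 and at 40.8, 24.7 and 7.29 in WT. The other 5 tested genes of the list did not pass. Of the 3 tested UDP-glucose epimerase genes, whose enzymes supply UDP-galactose, UGE5 and UGE2 rose by 1.05 and 0.91 and UGE3 fell by 0.91. The shares of all genes at 2 h were again 17.1% risen and 15.8% fallen.

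**Figure D4:**
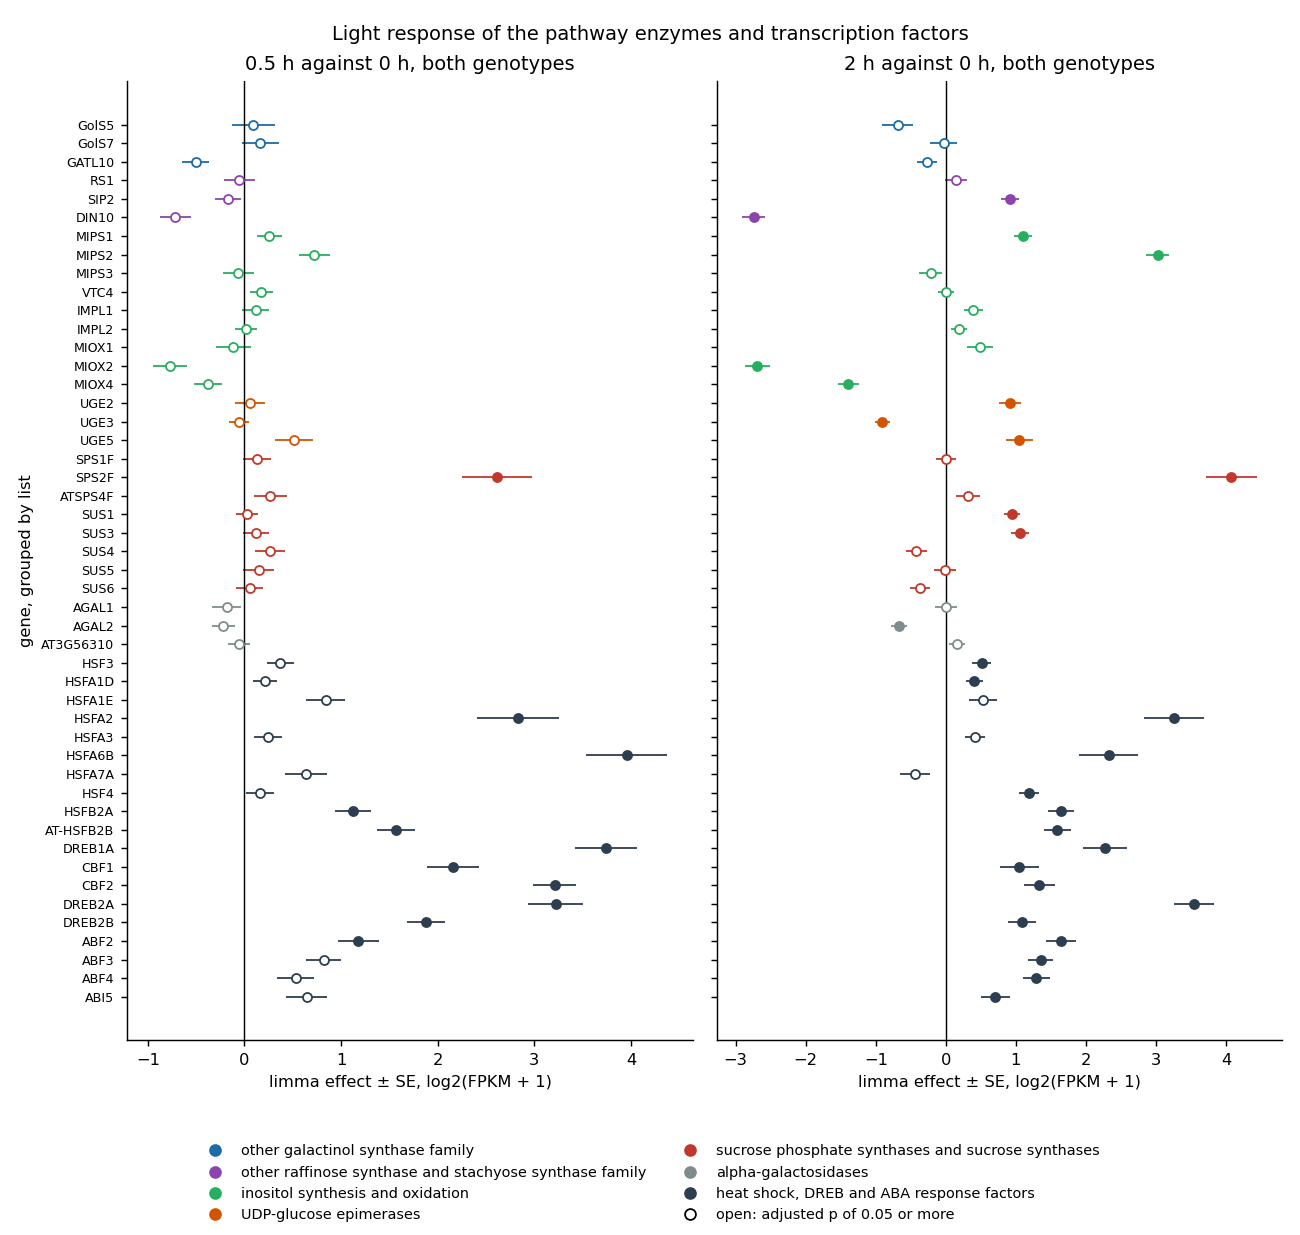
limma effects with SE on the log2(FPKM + 1) scale of 0.5 h (left) and 2 h (right) of light against 0 h over both genotypes, for 29 enzyme genes and 19 transcription factor genes that passed the filter. Filled points have an adjusted p under 0.05, and at 2 h SPS2F, MIPS2 and most factors lie to the right and DIN10, MIOX2 and MIOX4 to the left.

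Among the relatives of the 5 genes, 3 tested genes carry a raffinose synthase annotation, and 1 of them rose and 1 fell at 2 h. Of all genes, 17.1% rose and 15.8% fell. DIN10 (AT5G20250), a dark-inducible gene annotated as raffinose synthase 6, fell by 2.74 ± 0.16 at 2 h (SE; adjusted p = 4.9e-05, limma). Its FPKM was 570, 307 and 67.4 in RNAi-21 at 0, 0.5 and 2 h, against 557, 384 and 103 in WT, so in the dark it exceeded all 5 genes and at 2 h it lay below RS5. SIP2 (AT3G57520), annotated as raffinose synthase 2 and known as an alkaline alpha-galactosidase that breaks raffinose down, rose by 0.92 at 2 h. AT1G55740, annotated as raffinose synthase 1, did not pass, at 10.6 to 12.6 in RNAi-21 and 8.20 to 11.1 in WT. Of the other galactinol synthase family none of the 3 tested genes passed at either time. GolS5 was at 0.270 to 0.925 in RNAi-21 and 0.236 to 1.81 in WT, and GolS7 at 1.08 to 1.43 in RNAi-21 and 0.887 to 1.63 in WT. GATL10, listed also as galactinol synthase 8 but of the galacturonosyltransferase-like family by name, was at 8.52 to 12.4 in RNAi-21 and 8.75 to 12.996 in WT, and GATL4 stayed under 1. Among the 3 alpha-galactosidase genes, whose enzymes remove galactose from such sugars, AGAL2 fell by 0.67 at 2 h, while AGAL1 and the abundant AT3G56310, at 304 to 364 in RNAi-21 and 350 to 396 in WT, did not pass.

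Transcription factors of the heat shock, DREB and abscisic acid response families are known regulators of galactinol synthase genes under stress, and 19 of the 20 chosen genes were tested. In limma 10 of the 19 rose at 0.5 h, where 1.24% of all genes did, and 16 at 2 h, where 17.1% did. None of the 19 fell at either time, where 1.47% and 15.8% of all genes did. Their median effect was 1.12 at 0.5 h and 1.29 at 2 h, where all genes had a median of 0.00 and -0.03. The 20 genes were chosen with earlier results of these data known, so these shares and medians are a description. DREB2A (AT5G05410), a factor of drought and heat responses, rose by 3.22 ± 0.28 at 0.5 h (SE; adjusted p = 0.0043, limma). DREB1A (AT4G25480), the cold response factor, rose by 3.74 ± 0.32 at 0.5 h (adjusted p = 0.0040, limma). HSFA2 and HSFA6B, factors of the heat response, rose by 2.83 and 3.95 at 0.5 h and by 3.26 and 2.32 at 2 h. In the genotype term none of the 19 passed in limma, and none had an unadjusted p under 0.05. That term averages over the 3 times, so it cannot decide on a difference at 0.5 h alone.

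At 0.5 h the factors were higher in RNAi-21 than in WT by a median of 0.59 over the 19, and 3 were at least 2-fold higher. Over all genes the median was -0.03 and 0.841% were at least 2-fold higher. The WT library of this pair is the one with the high seed storage transcripts, the photosynthetic markers were lower in its RNAi-21 counterpart, and the part of either in these values was not tested. DREB1A was at 0.217, 24.7 and 4.85 in RNAi-21 at 0, 0.5 and 2 h, against 0.0777, 8.09 and 4.23 in WT. HSFA2 was at 0.988, 25.0 and 16.8 in RNAi-21 and at 1.49, 8.62 and 24.4 in WT. HSFA6B was at 1.90, 60.7 and 8.58 in RNAi-21 and at 1.24, 24.2 and 16.0 in WT. All 3 were highest at 0.5 h in RNAi-21, and DREB1A and HSFA6B also in WT, while GolS2 was highest at 2 h in both genotypes. At 2 h the median difference of the 19 from WT was -0.31, with HSFA2 at -0.52 and HSFA6B at -0.83. These are differences between single libraries and have no test.

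The genes with the pattern most like each of the 5 were sought among 1590 genes with a symbol, an FPKM of at least 5 in a library and a range of at least 1, by Pearson's r of log2(FPKM + 1) over the 6 libraries. The 6 points share their light times, and a high r is common among genes that are high at 2 h. For GolS1, 482 of the 1590 genes had an r over 0.95, and the closest were PHT2;1, a plastid phosphate transporter, BGLU9, a beta-glucosidase gene, and KAC1, a kinesin-like protein of chloroplast movement, each at 0.999. For RS5 there were 367 such genes, led by DDB2, a protein that recognises damaged DNA, at 1.00, and by the photolyase gene PHR1 and the light signalling gene SPA3, each at 0.998. For GolS2 there were 81. They were led by HAT9, a homeodomain-leucine zipper factor, at 0.997, the zinc finger gene ZF2 at 0.994 and ATCSLA09, a mannan synthase, at 0.993. HAT9 was at 6.62, 10.5 and 16.9 in RNAi-21 at 0, 0.5 and 2 h, against 5.11, 5.49 and 16.5 in WT. As with GolS2, its WT libraries at 0 h and 0.5 h were alike and its RNAi-21 library at 0.5 h lay between the others. For GolS3 there were 53, led by MYBR1 (MYB44), a stress-responsive MYB factor, at 0.995, the abscisic acid receptor gene RCAR1 at 0.989 and the clock gene LHY at 0.989. MYBR1 was at 96.9, 209 and 300.02 in RNAi-21 and at 92.8, 131 and 225 in WT. For GolS4, at its very low level, there were 31, led by the abscisic acid receptor gene PYL1 and the peptide genes RALFL24 and RALFL33, at 0.992, 0.988 and 0.988.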

How the data were processed

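Per the submitters' processing notes, HISAT and Bowtie2 were used, without versions. For quantification, build and annotation, the sources used here give nothing. The deposited values were taken to be FPKM made by the authors. The unit was judged from fractional values and unequal library sums, as neither headers nor labels name it, and TPM of a part of the genes is possible. How reads shared between galactinol synthase paralogues were assigned is not stated. Names came from the RefSeq table of TAIR10.1, which matched 19532 of 19763 listed genes and all 5 described; 139 identifiers were unnamed loci. No sequence is shown.

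From these values log2(FPKM + 1) was computed, for the 18441 genes that reached an FPKM of 1 in any library. Single libraries were compared by size alone, at a difference of 1. The other pathway genes were tested with limma 3.58.1 in R 4.3.3, with a variance trend, additive terms for light time and genotype, and adjusted p-values (Benjamini-Hochberg) called below 0.05. The 2 residual degrees of freedom were joined by a prior of 4.93. The p-values set each term against an error from unequal genotype differences and the prior, not against the spread between plants. The fit was tested on simulated data of 18441 genes with 200 changed, in 3 runs per term. The changed genes were drawn only from those with a mean log2(FPKM + 1) over 2, and the noise was independent and normal. Recovery of weaker genes was therefore not tried. In simulations of the 2 h light term, 98.3% of genes changed by 1 were recovered, with 23.7 false calls on average. With 200 genes changed, these false calls put the false discovery rate above the 0.05 at which genes were called. The recovery describes the simulated data alone and cannot show how the fit performs on the 6 real libraries. Python 3.11.15, pandas 2.3.3 and numpy 2.4.6 were used.

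The genes described and the lists were chosen with earlier results of these data known. Named were all 5 genes, up to 4 genes per list with the largest difference in a genotype comparison or in 2 h against 0 h, and the 3 genes most like each of the 5. SPS1F, HSF3, HSFA1D, ABF2 and ABI5 were named outside this rule, after their values were seen, as were marker genes. Alternatives were a pseudocount of 0.1, other filters, other scalings, other fold thresholds, no variance trend and leaving out a light time.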

Additional observations from a re-analysis of the deposited data

Results flagged for a closer look

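The difference of RNAi-21 from WT changed sign between light times for 3 of the 5 genes, each value resting on 1 library per side and the change not tested. For GolS2 it was 0.55 at 0 h, 1.89 at 0.5 h and -0.12 at 2 h. For RS5 it was 0.19, 0.39 and -0.22 at the same times. For GolS4, at an FPKM under 1 throughout, it was -0.0077, 0.048 and 0.45.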

How the results depend on the processing

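No paired analysis was possible because each group holds 1 library and the labels give no replicate numbers to block on; the only pairing, by light time, is already a term of the limma fit. Counts of the 5 genes past a threshold depended mostly on the pseudocount and the fold asked for. With a pseudocount of 0.1, which lifts GolS3 and GolS4, 2 of the 5 differed 2-fold between RNAi-21 and WT at 0.5 h and 1 at 2 h. With that pseudocount 2 differed for 0.5 h against 0 h in WT, 4 for 2 h against 0.5 h in RNAi-21 and 5 in WT. Of the responses, 2 then differed between the genotypes for 0.5 h against 0 h and 1 for 2 h against 0 h. At a 1.5-fold threshold 2 differed between genotypes at 0.5 h, 4 for 2 h against 0.5 h in RNAi-21, and 2, 1 and 2 in the response differences of 0.5 h against 0 h, 2 h against 0 h and 2 h against 0.5 h. At a 4-fold threshold 0 remained past it between genotypes at 0.5 h, for 0.5 h against 0 h in either genotype or in the response difference, and for 2 h against 0.5 h in RNAi-21, and 2 (GolS2 and RS5) for 2 h against 0 h in each genotype. Scaling by median ratios or by totals without organelle genes changed none of these counts by more than 1.5 times. The second scaling moved the median of all genes by -0.14 for 2 h against 0 h and by -0.20 for 2 h against 0.5 h in RNAi-21. It turned the sign of GolS4 at 0 h between genotypes and of GolS1 in the responses of 2 h against 0 h and against 0.5 h, all near 0. GolS2 for 2 h against 0.5 h in RNAi-21 passed 2-fold with median ratios, at 1.01. The share of all genes past 2-fold in either direction ran between 0.564% and 13.2% over the comparisons, and between 1.96% and 18.2% with a pseudocount of 0.1. In limma, the counts of pathway genes and factors stayed within 1.5 times in 45 of 46 recomputed values. The exception was 2 genes that fell at 0.5 h without the 2 h libraries, against 0. The cause was not tested. ABF2 at 0.5 h lost its call without a variance trend, and HSF3, HSFA1D and ABI5 at 2 h with the totals without organelle genes. HSFA1D at 2 h also lost it with no filter and without the 0.5 h libraries.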
